A study of Macaca mulatta with 13 samples.

Results

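Genes that mark fat cells were followed in a thigh muscle, the vastus lateralis, of 13 male rhesus monkeys (Macaca mulatta). The set holds every probe set that the platform annotation assigns to exactly 1 gene, where that gene is 1 of 10 listed adipocyte genes. It came to 12 probe sets for 6 genes, out of 52766 probe sets and 14132 named genes on the array: LEP with 2, ADIPOQ with 3, FABP4 with 2, CFD with 2, RBP4 with 2 and FASN with 1. PLIN1, CIDEC, SCD and LIPE were not analysed here, since the annotation used names no probe set after them. The control diet was eaten by 5 animals aged 27 to 30 years, and a calorie-restricted diet (CR) by 8 animals aged 27 to 32 years, for 18.5 years. Each animal gave 1 one-colour array of total RNA, so the number of animals limits the precision. The labels do not state the degree of restriction, and p-values measure the spread between these animals.

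Skeletal muscle contains fat cells between its fibres, and a whole-muscle RNA sample carries their transcripts together with those of fibres, vessels and connective tissue. Mature white adipocytes store triglyceride in a large lipid droplet and secrete hormones, the adipokines, into the blood. Leptin reports the size of the fat store to the brain, and adiponectin acts on fuel use in muscle and liver. In bulk samples, fewer adipocytes and less RNA per adipocyte cannot be told apart. The members were not equally specific as markers: FABP4 is also made by capillary endothelium and macrophages, RBP4 by liver, and FASN by many cell types.

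Across the animals the marker genes rose and fell together over a wide range, and the diets overlapped throughout that range. Between the highest and the lowest animal the brighter RBP4 probe set differed 46.9-fold and the brighter FABP4 probe set 17.7-fold. One LEP probe set ran from 4.81 to 11.12 on the log2 scale, its low end under the brightness limit used here, and the other spanned 2.26-fold. In 9 of the 12 probe sets, control replicate 4 and CR replicate 2 were the highest pair of animals, so each diet held 1 of the 2 high animals. The same 2 animals were the highest pair in 7.66% of all tested probe sets. No member passed the test between the diets. The 2 brighter ADIPOQ probe sets did not follow the other genes, while the dimmer one did.

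All 12 probe sets passed the filter on brightness, which kept the brighter 50% by the mean log2 signal of the 13 animals (26383 probe sets, mean signal of at least 107). The signals below are log2 values of the deposited MAS5 signal, a brightness summary over the probes of a probe set. Levels were not compared between probe sets, because each set of probes has its own efficiency.

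LEP encodes leptin. Its wide-ranging probe set gave log2 signals of 9.86, 6.31, 8.64, 11.12 and 8.82 in control replicates 1 to 5. In CR the lowest animal was at 4.81, the median at 8.29 and the highest at 10.59. The groups overlapped over most of their range, with control replicate 4 and CR replicate 2 at the top and CR replicates 8 and 1 at the bottom. The control mean was 8.95 ± 1.78 (SD, n = 5) and the CR mean 8.08 ± 2.18 (SD, n = 8). The difference, CR minus control, was -0.87 ± 0.96 (SE, log2), a fold of 0.548 with a 95% interval from 0.133 to 2.25. Limma's adjusted p was 0.999. Of the 13 values, 3 lay under the brightness limit. A second LEP probe set (MmugDNA.8791.1.S1_at) spanned only 2.26-fold, from 7.29 to 8.47, and differed between the diets by -0.20 ± 0.23 (SE). It correlated with the first at r = 0.65 over the 13 animals.

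FABP4 encodes the adipocyte fatty acid binding protein, which carries fatty acids in the cytosol. Its brighter probe set (MmugDNA.19691.1.S1_at) read 13.62, 11.53, 13.26, 14.56 and 12.999 in control replicates 1 to 5. In CR it ran from 10.79 in replicate 1 through a median of 12.48 to 14.94 in replicate 2. The highest and the lowest animal of all were thus both in the CR group. The control mean was 13.19 ± 1.10 (SD, n = 5) and the CR mean 12.53 ± 1.28 (SD, n = 8), a difference of -0.66 ± 0.58 (SE, log2). The other probe set (MmugDNA.31873.1.S1_at) followed the first closely, with r = 0.98, a range of 18.1-fold and a difference of -0.68 ± 0.65 (SE).

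RBP4 encodes the plasma carrier of retinol, which is secreted by adipocytes as well as by liver. Its brighter probe set (MmugDNA.27239.1.S1_at) read 10.63, 7.90, 9.98, 13.07 and 8.20 in control replicates 1 to 5. In CR the lowest, median and highest signals were 7.51, 8.98 and 12.08. The 2 high animals stood out more here than for LEP, and the next animal, CR replicate 4, was at 11.16. The difference between the diets was -0.67 ± 0.85 (SE, log2). The second probe set carries the same design number (MmugDNA.27239.1.S1_s_at) and so shares its source sequence. It gave -0.82 ± 0.86 (SE), with 4 of its 13 values under the brightness limit.

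FASN encodes fatty acid synthase, which builds palmitate. Its single probe set (MmuSTS.3677.1.S1_at) read 9.78, 8.52, 8.68, 11.25 and 8.50 in control replicates 1 to 5. In CR the lowest, median and highest signals were 7.39, 8.69 and 10.52. The high pair was the same as for RBP4, and the lowest animal was CR replicate 8. The diets differed by -0.62 ± 0.55 (SE, log2).

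CFD encodes adipsin, also called complement factor D, a serine protease of the alternative complement pathway that adipocytes secrete. Its brighter probe set (MmugDNA.36912.1.S1_at) read 12.28, 10.96, 12.95, 13.50 and 11.86 in control replicates 1 to 5. In CR the lowest, median and highest signals were 10.91, 12.05 and 13.40. Of the genes that varied together, CFD had the smallest difference between the diets, -0.20 ± 0.39 (SE, log2) for this probe set and -0.089 ± 0.56 for the other. The probe sets correlated at r = 0.97.

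ADIPOQ encodes adiponectin, an adipokine made almost only by adipocytes, and its probe sets disagreed. The dimmest read 8.83, 8.34, 8.26, 9.66 and 7.74 in control replicates 1 to 5. In CR it ran from 5.22 in replicate 1 through a median of 8.11 to 10.06 in replicate 2. This probe set shared its highest pair of animals with LEP, FABP4, RBP4, FASN and CFD, and differed between the diets by -0.58 ± 0.58 (SE, log2). Its signal in CR replicate 1 lay under the brightness limit. With 1 animal left out the difference ran from -0.88, without CR replicate 2, to -0.19, without CR replicate 1. The brightest (MmuSTS.3950.1.S1_at) read 9.48, 8.54, 10.01, 9.99 and 10.51 in the controls, and 9.47, 9.79 and 10.50 as the lowest, median and highest CR signals. Its lowest animal was control replicate 2, and CR replicate 1, the lowest animal for the dimmest probe set, was its second highest. The third (MmugDNA.19916.1.S1_at) correlated with the brightest at r = 0.84 (Spearman's rho 0.80). With the dimmest it had r = -0.38, but a rho of -0.022. Their differences between the diets were 0.13 ± 0.27 and 0.10 ± 0.23 (SE). Both turned with single choices, to -0.16 and -0.097 without control replicate 2 and to -0.072 and -0.060 with RNA quality ratios as covariates. The third also turned, to -0.018, without CR replicate 1.

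**Figure D1:**
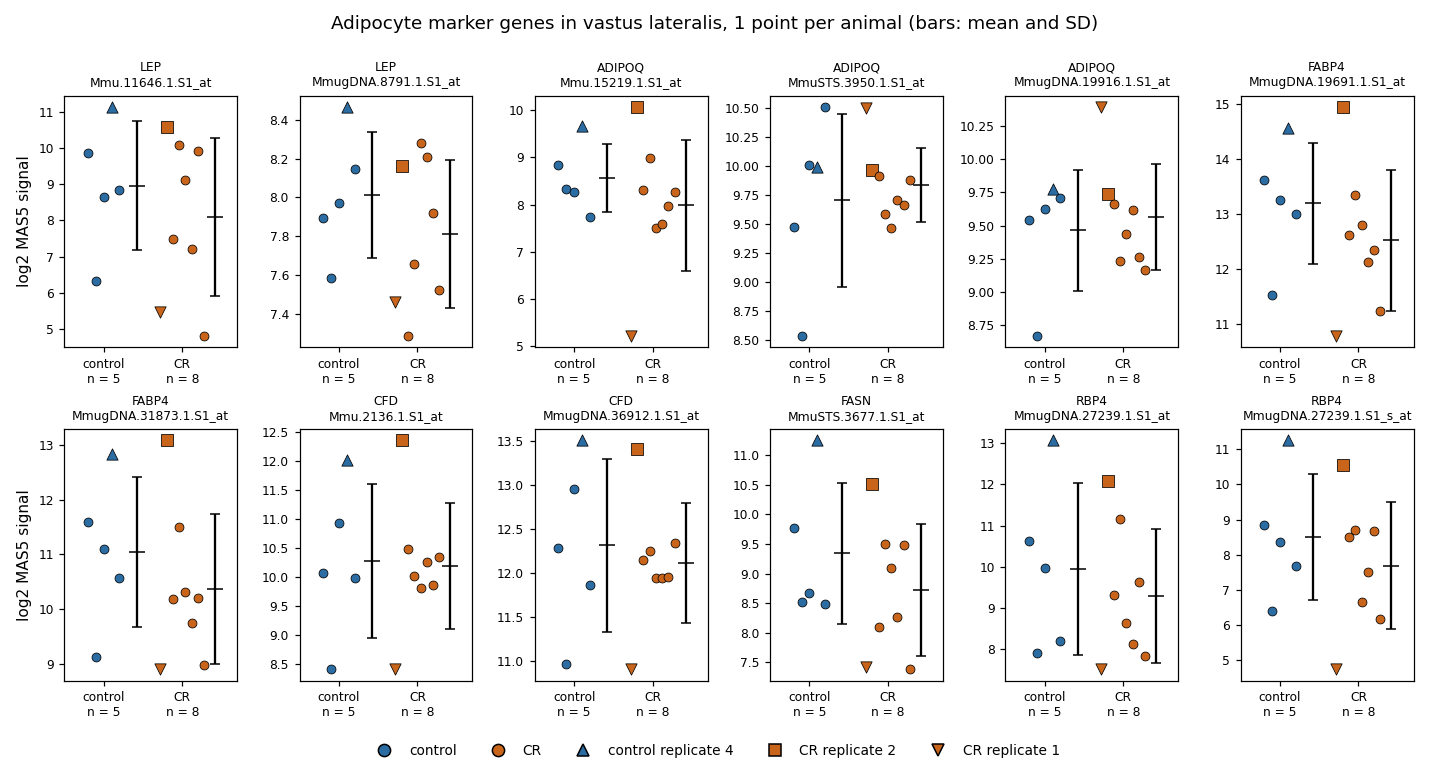
Log2 MAS5 signal of the 12 probe sets (y axes, 1 panel each, with their own scales) in 5 control and 8 CR animals. Points are animals, bars are the mean and SD of a group, and 3 animals have their own symbols. Control replicate 4 and CR replicate 2 lie at the top in 9 of 12 panels, and no panel separates the diets. They were the highest pair in 7.66% of all tested probe sets.

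Some member probe sets varied more between animals than most transcripts of the muscle, and others did not. The SD over all 13 animals was 2.01 for the wide LEP probe set, and 0.0644% of all tested probe sets had an SD as large. That share was 0.193% for the brighter RBP4 probe set, 2.20% for the brighter FABP4, 3.19% for FASN and 2.62% for the dimmest ADIPOQ. By contrast, 41.5% of tested probe sets varied as much as the brightest ADIPOQ probe set, whose SD was 0.50. The share was 14.7% for the brighter CFD probe set, 59.5% for the third ADIPOQ probe set and 68.3% for the second LEP probe set. The median SD of all tested probe sets was 0.45. Diet held between 0.161% and 8.00% of the variance of a member probe set, against a median of 3.89% over all tested probe sets. The spread of these genes therefore lay within the diet groups.

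The comparison between diets asked whether long-term calorie restriction went with a different level of fat cell transcripts in the muscle. With limma's moderated test over all tested probe sets and Benjamini-Hochberg adjustment, 0 of the 12 members passed, as did 0% of all probe sets. At an unadjusted p under 0.05 there were 0 of 12 members, where 2.43% of all probe sets reached that level. The lowest unadjusted limma p of a member with all animals was 0.266, for the brighter FABP4 probe set. Exact two-sided permutation tests over the 1287 ways to divide the animals gave p from 0.3497 to 0.869, where the smallest possible p is 0.000777. The groups overlapped for all 12 members, and they did not overlap for 0.072% of all tested probe sets.

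By sign alone, 10 of 12 members were lower in CR, as were 51.9% of all tested probe sets. The members share animals and vary together, so the 10 do not count as separate observations. Taking the brightest probe set of each gene, the median difference was -0.64 (log2), and the median over all tested probe sets was -0.012. Control replicate 4 decided much of that median. Without it the median of the 6 genes was -0.024, both CFD probe sets turned to 0.096 and 0.34, and the brighter RBP4 probe set turned to 0.11. Without control replicate 2, the control with low marker signals, the median was -0.95, and without CR replicate 2 it was -0.94. With control replicate 4 and CR replicate 2 both left out, a choice made after seeing the data, it was -0.34. The LEP difference ran from -1.53 without control replicate 2 to -0.32 without control replicate 4. The brighter FABP4 probe set ran from -1.08 to -0.32 with the same animals left out. Without CR replicate 2 the FABP4 difference was -1.01, with an unadjusted limma p of 0.0499 and an adjusted p of 0.903. FASN ran from -0.88 without CR replicate 2 to -0.14 without control replicate 4. With the array quality weights that limma estimates, the median was -0.32.

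The intervals show what these animals can and cannot resolve. For the brighter FABP4 probe set the 95% interval, before adjustment, ran from 0.27 to 1.47 as a fold of CR over control, and for FASN from 0.292 to 1.45. A fold of 1 lies inside both intervals. The brightest ADIPOQ probe set had the interval 0.738 to 1.62.

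**Figure D2:**
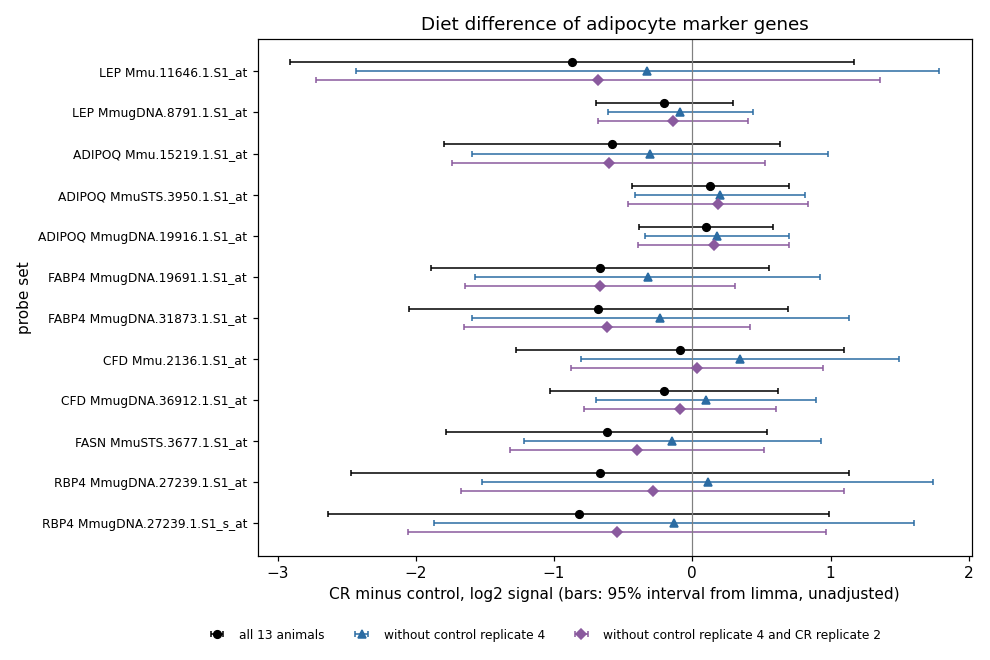
CR minus control difference in log2 signal (x axis) for each of the 12 probe sets (y axis), with 95% intervals from limma before adjustment. Black points use all 13 animals, blue triangles leave out control replicate 4, and purple diamonds leave out control replicate 4 and CR replicate 2. Every interval spans 0, and for each probe set the black point lies left of the blue one.

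The correlation between members was computed for the 15 pairs of the 6 genes over 13 animals, with the brightest probe set of each gene. Each pair was tested with 100000 permutations of the animals, two-sided, and p was adjusted over the 15 pairs. The 10 pairs without ADIPOQ had r from 0.64 to 0.92, and all 10 passed at an adjusted permutation p of at most 0.0259. By Spearman's rho 8 of the 10 passed. The exceptions were LEP with CFD (rho 0.53) and CFD with FASN (rho 0.54), both at an adjusted permutation p of 0.0964. With each gene centred on its diet mean the 10 pairs had r from 0.64 to 0.91.

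LEP and FASN, an adipokine and a lipogenic enzyme, had the highest r of the 15 pairs with the brightest probe sets. Their r was 0.92 (permutation p = 2.0e-05, adjusted p = 0.0001) and their rho 0.93, the same as for FABP4 with RBP4. With the second LEP probe set r was 0.66. Of all tested probe sets, those of LEP itself and of FASN included, 0.0114% correlated as highly with LEP. Without the 2 animals farthest from the LEP median, CR replicates 1 and 8, r was 0.87, and within the 8 CR animals it was 0.97. The relation did not depend on the high pair: without control replicate 4 and CR replicate 2 it was 0.93.

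FABP4 and RBP4 gave r = 0.90 and rho = 0.93 (permutation p = 2.0e-05, adjusted p = 0.0001 for r). Without CR replicates 1 and 2, the animals farthest from the FABP4 median, r was 0.88, and in CR alone 0.93. FASN and RBP4 gave r = 0.91 and rho = 0.90, and r was 0.79 without control replicate 4 and CR replicate 2. LEP and FABP4 gave r = 0.90 and rho = 0.87, with r = 0.83 without the 2 farthest animals. The 6 pairs among LEP, FABP4, FASN and RBP4 were also read without the 2 animals farthest from the median of the first-named gene. Their r then ran from 0.788 to 0.876.

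CFD was more loosely tied to the others. It correlated with FABP4 at r = 0.84 (rho 0.68, adjusted permutation p of r 0.000956) and with RBP4 at r = 0.83 (rho 0.75). With FASN it gave r = 0.69, which fell to 0.31 without control replicate 4 and CR replicate 2, the animals farthest from the CFD median. That relation rests on those 2 animals. With LEP, r was 0.64, or 0.73 without the 2 animals farthest from the LEP median, and 0.44 without control replicate 4 and CR replicate 2.

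ADIPOQ stood outside this group when read with its brightest probe set, with r from -0.13 to 0.24 to the other genes and adjusted permutation p of at least 0.575. Read with its dimmest probe set it varied with most of the group, with r from 0.34 to 0.85 to the 9 probe sets of the other genes. Its rho to them ran from 0.066 to 0.77. The second LEP probe set had the lowest r and the lowest rho. The other 2 ADIPOQ probe sets had r from -0.13 to 0.30 to the same 9. The median r over the 15 gene pairs was 0.83 with the brightest probe sets and 0.84 with the probe set of largest SD for each gene. With control replicate 4 and CR replicate 2 left out it was 0.62. Which ADIPOQ probe sets measure adiponectin mRNA was not tested, since probe sequences were not used here.

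**Figure D3:**
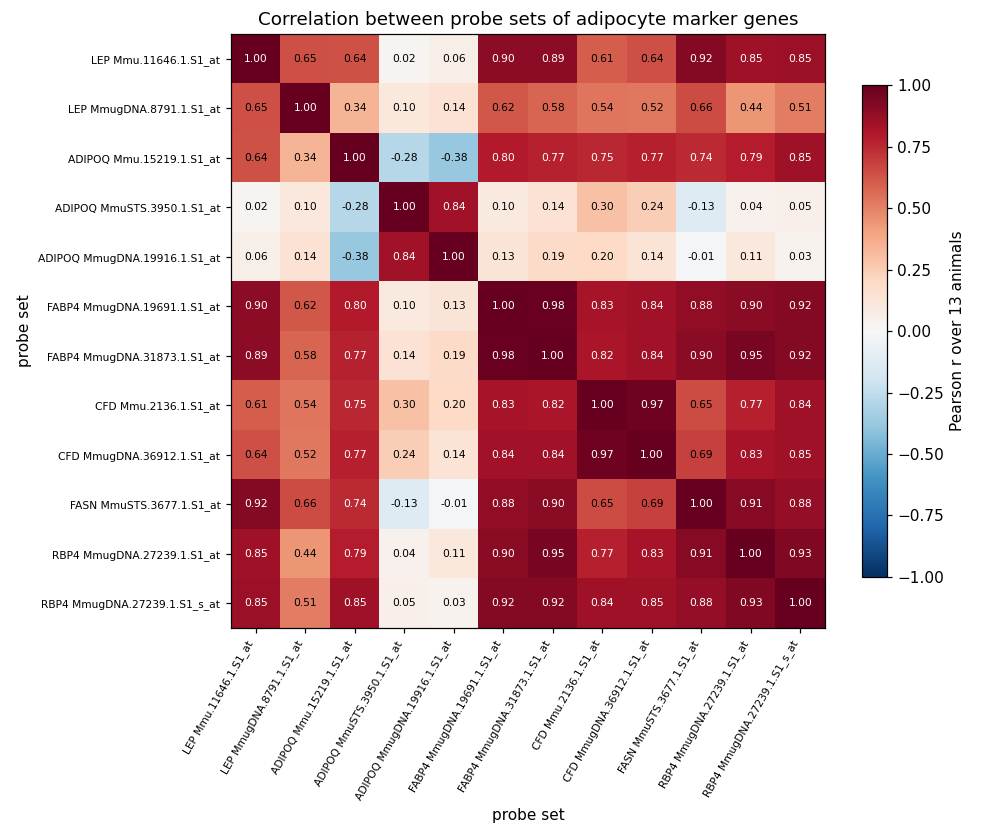
Pearson r over 13 animals between the 12 probe sets (both axes), in colour from -1 to 1 with the value printed in each cell. The 2 pale ADIPOQ rows, with r from -0.13 to 0.30 to other genes, lie among red rows for LEP, FABP4, CFD, FASN, RBP4 and the dimmest ADIPOQ probe set.

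**Figure D4:**
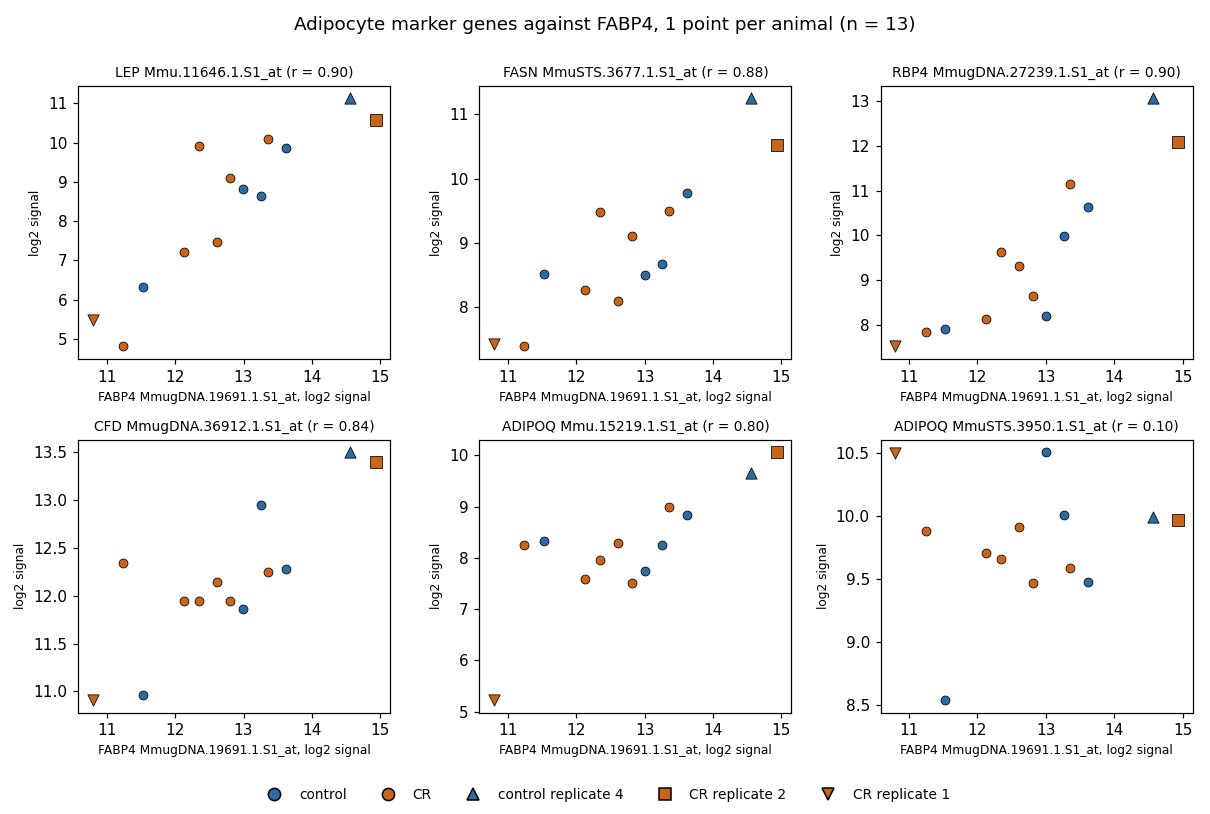
Log2 signals of 6 probe sets (y axes) against the brighter FABP4 probe set (x axes), 1 point per animal. Control and CR animals are mixed along each trend, control replicate 4 and CR replicate 2 lie at the upper right, and the last panel, the brightest ADIPOQ probe set, shows no trend (r = 0.10).

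An adipocyte marker level was made for each animal, the mean z score of the 6 genes with the brightest probe sets. It was highest in control replicate 4 (1.49) and CR replicate 2 (1.27) and lowest in control replicate 2 (-1.25) and CR replicate 1 (-0.97). The level includes the brightest ADIPOQ probe set, whose r with it was 0.27. With the probe set of largest SD for each gene the high pair was the same, but the lowest animals were CR replicate 1 (-1.68) and CR replicate 8 (-0.88), and control replicate 2 was at -0.82. Among 9806 other genes, the 10 whose signals followed this level most closely had r from 0.90 to 0.96 over 13 animals. They were chosen by that r, so it is given as a description. An r over 0.8 with the level was reached by 0.739% of tested probe sets.

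Several of these genes are known from fat cells. CIDEA, a lipid droplet protein of the same family as CIDEC, followed the level at r = 0.92 and ran from 5.52 to 10.09 on the log2 scale, its low end under the brightness limit. S100B, a calcium-binding protein of adipocytes and Schwann cells, gave r = 0.94 and ran from 4.20 to 10.58 on the log2 scale, its low end under the brightness limit. PRKAR2B, a regulatory subunit of protein kinase A, gave r = 0.93, and APOE, the lipid carrier apolipoprotein E, and MGST1, a membrane-bound glutathione transferase, also gave r = 0.93. The closest was GABRE, a GABA-A receptor subunit, at r = 0.96. BTN3A3, a butyrophilin, and NMS, the neuropeptide neuromedin S, gave 0.92 and 0.91. TIMP3, an inhibitor of matrix proteases, gave 0.91 and ZFP36L1, a protein that promotes mRNA decay, 0.90. Other probe sets of ZFP36L1 had r from 0.17 to 0.93, and the other NMS probe set had 0.67. Without control replicate 4, the animal farthest from the median, the 10 genes had r from 0.86 to 0.94. With CR replicate 2 left out as well they had r from 0.76 to 0.92. None of the 10 passed limma's test between the diets.

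Other genes of fat cell biology were read from 5 lists, with 54 of 66 genes on the array and 48 bright enough to test. None passed limma's test between the diets in either direction, and 1 of 48 had an unadjusted p under 0.05, where 2.43% of all tested probe sets did. That gene, ACLY (ATP citrate lyase), differed by -0.55 ± 0.25 (SE, log2), while its other probe sets gave -0.14 and -0.016. The median difference of the 48 genes was -0.12. An r over 0.8 with the marker level was found for 6 of the 48 (12.5%), each gene read by its brightest probe set. Over all tested probe sets, with the members and several probe sets per gene included, the share was 0.739%. With control replicate 4 and CR replicate 2 left out, those 6 genes had r from 0.49 (EBF1) to 0.83 (CD36).

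Of 10 adipogenic transcription factors and cofactors tested, 3 were higher and 7 lower by sign, with a median difference of -0.13. PPARG, the master regulator of fat cell differentiation, followed the marker level at r = 0.88 and differed by -0.84 ± 0.92 (SE, log2). Its SD was 2.03 among controls and 1.83 among CR animals. It ran from 4.31 to 9.82 on the log2 scale, its low end under the brightness limit. EBF1, another adipogenic factor, gave r = 0.82 and a difference of -0.38. EBF2 differed by -0.38 ± 0.28 and had r = 0.71. The other probe set differed by -0.60 for EBF1 and by -0.61 for EBF2. CEBPA, a partner of PPARG, gave r = 0.73, and CEBPB gave r = -0.74. Without control replicate 4 and CR replicate 2, r was 0.78 for PPARG, 0.49 for EBF1, 0.16 for EBF2, 0.13 for CEBPA and -0.27 for CEBPB. The relations of EBF2, CEBPA and CEBPB with the level thus rested largely on those 2 animals. RXRA had r = -0.64 with all animals and -0.63 without those 2, and ZNF423 had -0.57 and -0.47. In the same order, CEBPD had 0.70 and 0.57, TLE3 0.37 and 0.22, and KLF15 -0.15 and 0.30.

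Of 14 genes of fatty acid and triglyceride synthesis tested, 3 were higher and 11 lower by sign, with a median of -0.23. DGAT2, which adds the last acyl chain to triglyceride, followed the level at r = 0.88 and differed by -0.62 ± 0.60 (SE, log2). The other DGAT2 probe set differed by -0.30. THRSP, a regulator of lipogenesis, differed by 0.62 ± 0.52 and had r = 0.15. ACACA, the acetyl-CoA carboxylase that feeds FASN, had r = 0.18. With control replicate 4 and CR replicate 2 left out, r was 0.78 for DGAT2, 0.018 for THRSP and -0.38 for ACACA.

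Of 8 fatty acid uptake genes tested, 1 was higher and 7 lower by sign, with a median of -0.14. LPL, the lipase that frees fatty acids from lipoproteins, had r = 0.86 with the level and a difference of -0.14 ± 0.39 (SE, log2). CD36, a fatty acid transporter, had r = 0.84 and a difference of -0.77 ± 0.53. ACSL1, which activates fatty acids, differed by -0.36 ± 0.17 and had r = 0.061. The other ACSL1 probe set differed by -0.18, and the other LPL probe sets by -0.19 to 0.015. FABP3, the fatty acid binding protein of muscle fibres, had r = -0.44. With control replicate 4 and CR replicate 2 left out, r was 0.77 for LPL, 0.83 for CD36, 0.31 for ACSL1 and 0.058 for FABP3. The relation of FABP3 with the level thus rested on those 2 animals.

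Of 9 lipid droplet and lipolysis genes tested, 5 were higher and 4 lower by sign, with a median of 0.020. CIDEA differed by -0.66 ± 0.66 (SE, log2). AQP7, a glycerol channel, differed by -0.61 ± 0.72 and had r = 0.080. Its lowest log2 signal, 4.20, lay under the brightness limit. PNPLA2, the first lipase of triglyceride breakdown, had r = -0.11 and a difference of 0.020. The other PNPLA2 probe set differed by -0.11. Of 7 adipokine and receptor genes tested, 4 were higher and 3 lower by sign, with a median of 0.027. RARRES2, the adipokine chemerin, differed by -0.44 ± 0.33 and had r = 0.75. ADIPOR1, an adiponectin receptor, differed by 0.32 ± 0.24 with r = -0.62. CDH13, T-cadherin, which binds adiponectin on cell surfaces, had r = -0.85, and 0.106% of all tested probe sets had an r as low. Without control replicate 4 and CR replicate 2, r was 0.39 for RARRES2, -0.11 for ADIPOR1 and -0.75 for CDH13.

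Markers of other cell types differed between the same animals. Control replicate 4 had the lowest level of skeletal muscle fibre markers (-1.35, mean z of 8 genes of 10), the highest of endothelium (1.71, 7 of 9) and the highest of fibroblast and matrix (1.25, 8 of 9). CR replicate 2 had the highest macrophage level (1.36, 7 of 8), an endothelial level of 0.84 and a muscle fibre level of -0.41. The summed signal of the muscle fibre markers ran from 325016 to 708433 in controls and from 428579 to 723019 in CR. The endothelial sum ran from 7011 to 19557 in controls and from 4747 to 11559 in CR. The macrophage sum ran from 3621 to 6822 and from 2711 to 9645, and the matrix sum from 63966 to 179990 and from 76574 to 133319.

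Over the 13 animals the adipocyte marker level had r = 0.60 with endothelium (rho 0.46), 0.60 with macrophages (rho 0.62), 0.40 with matrix (rho 0.23) and -0.45 with muscle fibre markers (rho -0.32). Without control replicate 4 and CR replicate 2 these were 0.18, 0.29, 0.033 and 0.021, and the median r between member genes was 0.62. For macrophages, r was 0.68 without the 2 animals farthest from the median of the adipocyte level and 0.72 within the 8 CR animals. The part of these cell types in the diet differences above was not tested. Blood, nerve, and brown or beige fat had fewer than 3 testable markers each, and lymphocytes had none. UCP1, DIO2, PRDM16 and ELOVL3, which define thermogenic fat, were not tested.

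**Figure D5:**
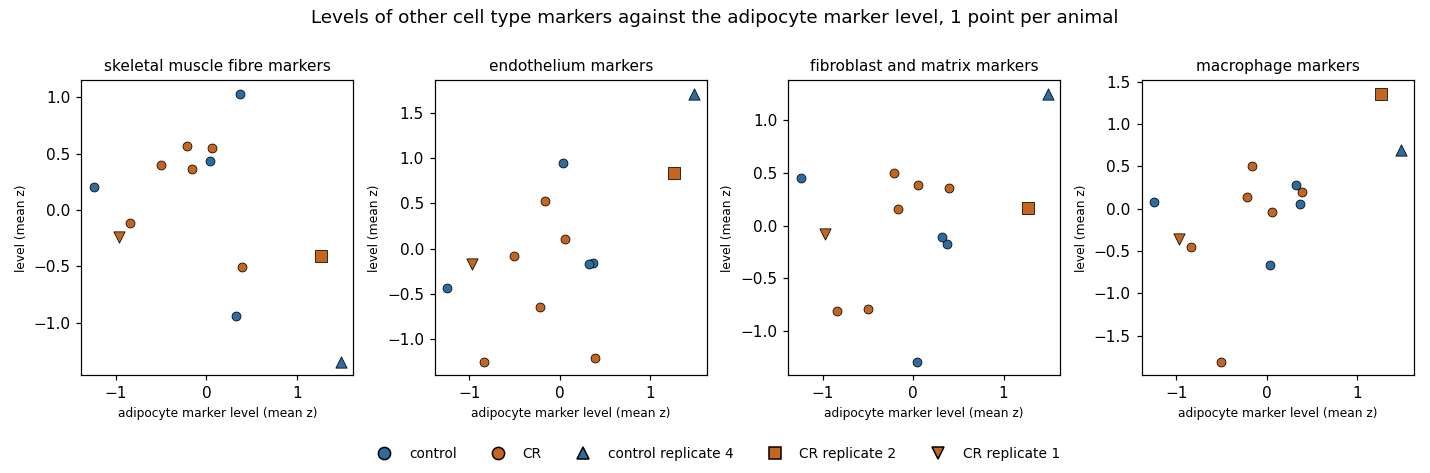
Marker level (mean z score) of muscle fibres, endothelium, fibroblasts and matrix, and macrophages (y axes) against the adipocyte marker level (x axes), 1 point per animal. Control replicate 4 is at the far right of each panel, lowest for muscle fibre (-1.35) and highest for endothelium (1.71) and matrix (1.25), and CR replicate 2 is highest for macrophages (1.36).

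RNA quality was read from the ratio of the signals at both ends of control transcripts, the 3-prime over the 5-prime. The log2 GAPDH ratio was 0.73 in control replicate 4 and 0.61 in CR replicate 2, within the range of 0.30 to 0.91 over all animals. The log2 actin ratio was 2.41 in control replicate 4, the highest of all, and 1.66 in CR replicate 2. It was lowest, 1.06, in CR replicate 1. The marker level had r = 0.019 with the GAPDH ratio (rho -0.20) and 0.48 with the actin ratio (rho 0.28). With both ratios as covariates the median difference of the 6 genes was -0.46.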

How the data were processed

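Transcripts of 13 muscle samples were measured on one-colour Affymetrix arrays, 5 control and 8 CR animals, grouped by the diet in the labels, 1 array each. The deposited values are intensity values, MAS5 signals on a linear scale, per the submitters' processing notes. Its version is not stated there. Their 2% trimmed mean was 500.0 on every array, so an overall shift in 1 animal would not be seen. From the 52865 rows, 99 control probe sets were removed. Signals were floored at 1, which touched 137 values, and log2 transformed, and the dimmer 50% of probe sets were left out. The platform annotation named 24956 probe sets with 1 symbol.

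The diets were compared in R 4.3.3 with limma 3.58.1 (linear fit, moderated variances with an intensity trend), across all 26383 tested probe sets, two-sided, at a Benjamini-Hochberg adjusted p under 0.05. The script was tested on simulated data. Differences of single members were also tested by exact permutation, and correlations by 100000 permutations with scipy 1.17.1. All members were named, as were the 10 genes most like the marker level and the 2 genes with the largest difference in each list; further list genes were chosen after their values were seen. The members and lists were chosen with earlier results of these data known. Alternatives covered the scaling, the floor, the filter, array weights, RNA ratios, the choice of probe set, the replicate number and each animal left out. The labels name no batch. Figures were drawn with matplotlib 3.10.9.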

Additional observations from a re-analysis of the deposited data

Results flagged for a closer look

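Single animals standing apart within a diet were sought over 76 groups of values, where chance flags about 1 in 20, or 3.80. There were 4. For the third ADIPOQ probe set (MmugDNA.19916.1.S1_at), control replicate 2 had a log2 signal of 8.67 with the other controls between 9.54 and 9.78, and CR replicate 1 had 10.39 with the other CR animals between 9.17 and 9.74. CR replicate 1 was at the same time the lowest animal for 7 of the 12 member probe sets. For GABRE, CR replicate 2 had 10.54 with the other CR animals between 7.94 and 8.86. For the adipogenic factor EBF2, CR replicate 2 had 10.48, with the others between 8.59 and 9.38. The causes were not tested.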

How the results depend on the processing

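No probe set passed the diet test in 22 of 24 alternatives, and leaving out 1 animal gave 0 to 1: 1 passed without control replicate 1 and 1 without control replicate 5. Among 284 alternative values of member differences were those with another filter, without the intensity trend and from the permutation test. These leave the difference itself unchanged, so its direction could not turn there. Of the 284, 272 kept their direction and stayed past no threshold. In 12 the direction turned: the dimmer CFD probe set became 0.14 with array quality weights, 0.035 with control replicate 4 and CR replicate 2 left out, and ran from -0.56 to 0.34 with 1 animal left out. The brighter CFD probe set ran from -0.54 to 0.096 and the brighter RBP4, at -0.67 with all animals, from -1.18 to 0.11, turning without control replicate 4. With RNA ratio covariates the ADIPOQ differences became -0.072 (brightest) and -0.060 (MmugDNA.19916.1.S1_at), and with 1 animal left out they ran from -0.16 to 0.33 and from -0.097 to 0.18. The cause was not tested.

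The median pairwise r of 0.83 became 0.68 with Spearman's rho and 0.62 with control replicate 4 and CR replicate 2 left out. With 1 animal left out it ran from 0.76 to 0.86.

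With the replicate number as a block (replicate block) the median member difference was -0.25, with 0 probe sets past the test. No pairing by number was seen in the signals: same-numbered deviations correlated from -0.20 to 0.020, and 0 of 5 controls correlated best with their own number. The sample titles give only a replicate number, and what it stands for was not tested. Dim values, such as the lowest LEP signals, vary widely after log2 transformation.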
